A study of Mus musculus with 6 samples.

Results

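The 10 genes described here encode the Janus kinase JAK2 (*Jak2*), the transcription factors STAT3, STAT5A, STAT5B and STAT6 (*Stat3*, *Stat5a*, *Stat5b*, *Stat6*), the inhibitors CIS, SOCS1, SOCS2 and SOCS3 (*Cish*, *Socs1*, *Socs2*, *Socs3*) and the serine/threonine kinase PIM1 (*Pim1*). They are a fixed list matched by gene symbol, with no measured value in the rule. The list was, however, chosen with earlier results of these data known. All 10 were found among the 54532 genes of the RNA-seq table. The RNA-seq asked how gene expression changed in hematopoietic stem and progenitor cells after loss of *Myh9*, which encodes the heavy chain of non-muscle myosin IIA. LSK cells, the lineage-negative bone marrow fraction positive for Sca1 and c-Kit, were sorted from *Myh9*fl/fl;*Mx1*-cre mice (*Myh9*-deficient, cKO) and from littermates without cre (control, CTRL), with 3 libraries in each group.

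All mice were C57BL/6 and carried floxed *Myh9*, and both groups received poly I:C, a double-stranded RNA mimic, at 5 mg/kg. The sample descriptions give 2 doses, on alternate days, whereas the methods describe a longer course. Treatment began at 5 to 6 weeks of age, and 100000 LSK cells were collected for each library 4 days after the first injection. The *Mx1* promoter, which responds to interferon, drives the recombinase in many tissues besides blood, so the deletion was not limited to LSKs. Poly I:C itself induces interferon, and with no uninjected group its effect on the 10 genes cannot be separated from their resting level. How many mice gave each set of cells is not stated, so the p-values measure the spread between libraries, which may be in part technical.

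Cytokine receptors without a kinase domain of their own carry JAK kinases on their intracellular part. Ligand binding brings the JAKs together, they phosphorylate STAT proteins, and the STAT dimers enter the nucleus and bind DNA. Erythropoietin and the IL-3 family act mainly through JAK2 and STAT5, IL-6 family cytokines and G-CSF through STAT3, IL-4 and IL-13 through STAT6, and type I interferon in part through STAT2. *Cish*, the SOCS genes and *Pim1* are themselves STAT target genes. CIS and the SOCS proteins dampen the signal by blocking receptors or JAKs, while PIM1 promotes survival and growth.

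The sequence that most STAT dimers recognise is TTCNNNGAA, in which N is any base, and the stretches that hold it near the start of these genes are shown first. In RefSeq windows of the GRCm38.p6 build, from 250 bases before to 50 bases after each transcript start, the motif was present in 2726 of 32851 windows (8.30%). It reads the same on both strands, so 1 search covers both. Of the 9 genes with a window (12 windows, none of them for *Socs2*), *Cish* and *Socs3* held it. The variant with 4 free bases, TTCNNNNGAA, which STAT6 can also bind, was in 6.95% of all windows and in none of the 12. Both stretches are given 5′ to 3′ on the strand of the gene, with each motif in capitals:
Cish: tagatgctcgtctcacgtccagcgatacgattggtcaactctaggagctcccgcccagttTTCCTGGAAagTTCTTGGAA
Socs3: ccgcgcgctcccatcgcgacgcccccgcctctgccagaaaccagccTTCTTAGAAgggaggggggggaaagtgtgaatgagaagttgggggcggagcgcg
The *Cish* stretch is chr9:107296599-107296678 on the plus strand, and its motifs begin at bases 1 and 12 of the transcript. The *Socs3* stretch is chr11:117969467-117969566 on the minus strand, and its motif begins at position -154, counted back from the base before the start. These starts lie 633 bases (*Cish*) and 681 bases (*Socs3*) inside the gene spans of the expression table. A match is a description of the letters and says nothing of occupancy, which was not measured.

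The libraries held 17571544 to 19894562 reads on genes. Pearson correlations of log2(FPKM + 1) across the genes tested were 0.991 to 0.993 within groups and 0.974 to 0.977 between them, and no library stood apart from its group. *Myh9*, the targeted gene, was at 23.0, 22.6 and 22.0 FPKM (fragments scaled by gene length and by library size) in the CTRL libraries and at 18.4, 20.0 and 17.7 FPKM in the cKO libraries. Its mean was thus 17.1% lower (limma, Benjamini-Hochberg adjusted p = 0.00642), and most of its RNA was still counted in cKO cells. The paper describes the floxed part as the first exon and reports efficient deletion by real-time PCR in bone marrow. Levels here are counted over all exons, so RNA lacking that exon could still be counted. The fall therefore does not measure how completely the gene was deleted. *Kit* was at 23.4 to 24.3 FPKM in CTRL and 21.2 to 21.8 FPKM in cKO (adjusted p = 0.0105), and *Ly6a*, which encodes Sca1, at 93.2 to 96.7 and 85.4 to 92.3 FPKM (adjusted p = 0.0833), so both sorting markers were present in all 6 libraries.

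In *Myh9*-deficient LSKs the 10 genes did not move together. The mean level of *Socs3* fell by 47.6% and that of *Pim1* fell by 41.9%. *Stat5b* fell by 19.0%, *Stat6* fell by 16.9% and *Jak2* fell by 13.3%. *Socs1* rose by 52.8%, and *Stat5a* was level within the spread of the libraries. *Socs2* was higher in every cKO library, but too low in FPKM to be tested with the others.

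The test was limma on log2(FPKM + 1) over the 11552 genes whose mean reached 1 FPKM, and log2 fold changes are on that scale, which understates changes of low genes. Of the 10 genes, 8 were tested, while *Cish* and *Socs2* were below the limit. At an adjusted p under 0.05, 5 of the 8 were lower and 1 was higher in cKO, beside 20.6% of all genes tested that were lower and 19.9% that were higher. With trends in gene length and GC content removed from each library the split was 4 lower and 2 higher. No member changed by more than 2-fold, while 2.13% of all genes did on the log2(FPKM + 1) scale (with an unadjusted p under 0.05). The cKO libraries lay entirely below the CTRL libraries for 6 of the 8 and entirely above for 1 of the 8, beside 28.5% and 25.5% of all genes tested. The median log2 fold change of the 8 was -0.22, that of all genes tested -0.0096.

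**Figure D1:**
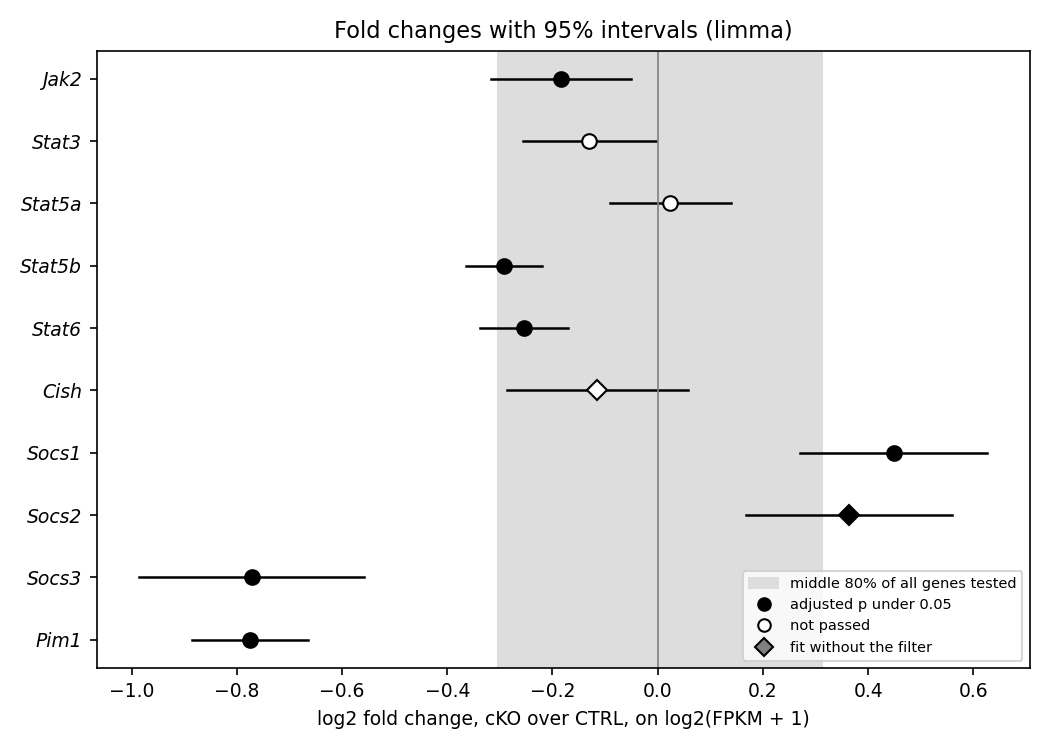
Log2 fold change (cKO over CTRL, on log2(FPKM + 1), x axis) of each of the 10 genes with its 95% interval. Circles are genes in the main limma test and diamonds the 2 genes below the limit, from the fit without it. Filled symbols have an adjusted p under 0.05, and the grey band runs from the lowest to the highest decile of all genes tested, -0.30 to 0.31. *Socs3* and *Pim1* lie left of the band, *Socs1* and *Socs2* right of it, and *Cish*, *Jak2* and the STAT genes within it.

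Compared per deposited gene length, levels spanned a ratio of 184 from *Pim1* down to *Socs2* in CTRL and of 62.5 from *Pim1* to *Cish* in cKO. In CTRL the order of these FPKM was *Pim1*, *Stat5b*, *Stat6*, *Stat5a*, *Stat3*, *Jak2*, *Socs3*, *Socs1*, *Cish* and *Socs2*, and no neighbours overlapped. In cKO the first 8 places were the same, but *Socs3* overlapped *Socs1*, and *Socs2* passed *Cish* with overlapping libraries. The deposited lengths are those of all exons merged, and the order below *Pim1* depends on them. Per length of the longest coding transcript in GENCODE M21, a setting added after the data were seen, the span was 44.0 in CTRL and 27.1 in cKO. *Stat5a* then moved above *Stat6* in CTRL and above *Stat5b* as well in cKO, and *Cish*, *Socs2* and *Socs1* were at 2.42, 2.30 and 2.19 FPKM in CTRL. In bulk RNA, fewer cells that express a gene and less of its RNA per cell cannot be told apart.

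**Figure D2:**
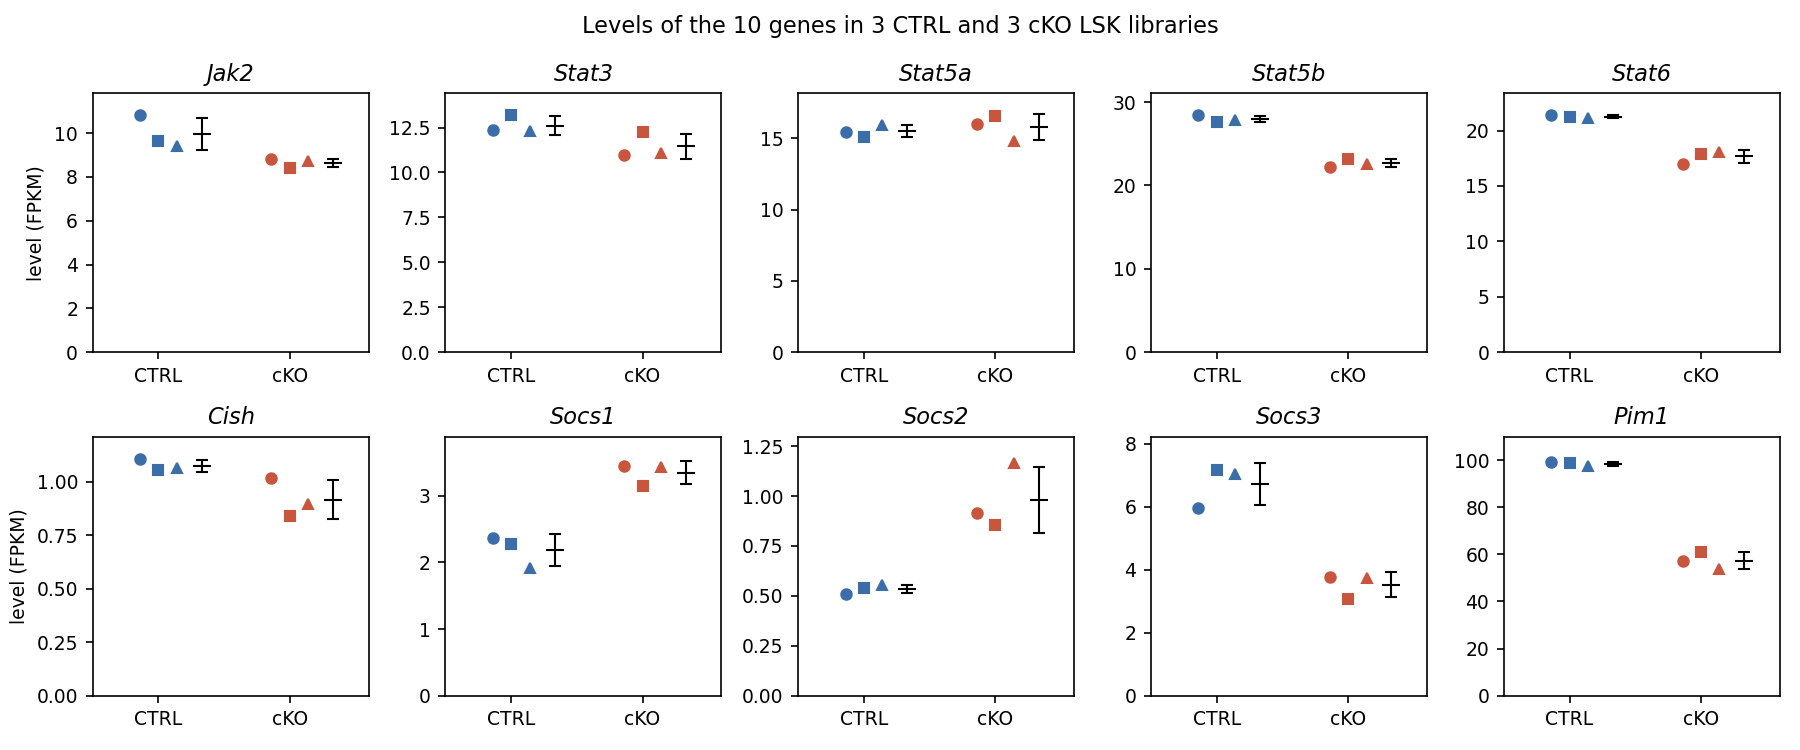
Level (FPKM, y axis from 0) of each gene in 3 CTRL (blue) and 3 cKO (red) libraries, where circle, square and triangle are replicates 1, 2 and 3 and the bar beside them is the mean ± SD. *Pim1* is at 97.5 to 99.3 FPKM in CTRL and 53.7 to 61.0 FPKM in cKO, and only *Stat5a* shows overlapping groups.

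*Jak2* (ENSMUSG00000024789, chr19:29251828-29313080, plus strand of mm10) encodes the kinase used by the erythropoietin receptor and the receptors of the IL-3 family. It was at 10.8, 9.66 and 9.43 FPKM in CTRL and 8.80, 8.43 and 8.71 FPKM in cKO, resting on 773 to 1082 reads. The groups did not overlap, and CTRL replicate 1 was the highest library. The mean fell from 9.97 ± 0.746 to 8.65 ± 0.193 FPKM (SD, n = 3), a log2 fold change of -0.18 (SE 0.056, 95% interval -0.32 to -0.051, limma adjusted p = 0.0377). This call was lost in 8 of 18 alternative settings. Leaving out a single library gave an adjusted p of 0.0798 (without CTRL 1), 0.0641 (without CTRL 2), 0.0730 (without cKO 1), 0.0966 (without cKO 2) and 0.0807 (without cKO 3). The other settings that lost it were no filter (0.0779), no moderation of the variance (0.0842) and removal of length and GC trends (0.0638).

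Of the other JAK genes, *Tyk2*, whose product serves interferon and IL-12 family receptors, fell from 9.56 to 10.3 FPKM in CTRL to 7.37 to 8.61 FPKM in cKO (log2 fold change -0.32, limma adjusted p = 0.00798). *Jak1* (17.3 to 18.4 and 16.5 to 17.4 FPKM, adjusted p = 0.289) and *Jak3* (18.5 to 19.4 and 16.3 to 18.8 FPKM, adjusted p = 0.0969) did not pass. Both overlapped between groups.

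*Stat5b* (ENSMUSG00000020919, chr11:100780731-100850724, minus strand) had the highest FPKM of the STAT genes per deposited length, though not in cKO per coding transcript length. It was at 28.4, 27.7 and 27.8 FPKM in CTRL and 22.2, 23.2 and 22.6 FPKM in cKO. All cKO libraries lay below all CTRL libraries, with a gap many times the spread within either group. The mean fell from 28.0 ± 0.400 to 22.7 ± 0.487 FPKM (SD, n = 3), a log2 fold change of -0.29 (SE 0.030, 95% interval -0.36 to -0.22, limma adjusted p = 0.000578).

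*Stat5a* (ENSMUSG00000004043, chr11:100859351-100885169, plus strand), which encodes the closely related second STAT5 protein, was at 15.5, 15.1 and 15.9 FPKM in CTRL and 16.0, 16.6 and 14.8 FPKM in cKO. The groups overlapped, with both the highest and the lowest library in cKO. The log2 fold change was 0.024 with a 95% interval from -0.091 to 0.14 (limma adjusted p = 0.725), so a fall as large as that of *Stat5b* lay outside it. The sign turned without cKO replicate 2 (-0.011, adjusted p = 0.883), and with length and GC trends removed *Stat5a* was higher in cKO (0.14, adjusted p = 0.0463).

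*Stat5b* and *Stat5a* lie 8626 bases apart on chromosome 11 and arose from 1 ancestral gene. Of the 100-base stretches of the longest *Stat5b* transcript of any type, 5.18% also occur in a transcript of *Stat5a*, and 2.85% the other way. How reads from such stretches were assigned is not given in the sources used here. Within a library the FPKM ratio of *Stat5b* to *Stat5a* was 1.84, 1.83 and 1.75 in CTRL and 1.39, 1.40 and 1.53 in cKO. The ratio was lower in each cKO library than in any CTRL library, but which gene had the higher level depends on the lengths. Per longest coding transcript (3888 bases for *Stat5a*, against 7133 deposited) the ratio was 1.01 to 1.07 in CTRL and 0.806 to 0.884 in cKO. The ratio averaged 1.81 ± 0.0493 in CTRL and 1.44 ± 0.0763 in cKO (SD, n = 3, exact two-sided permutation p = 0.1, the smallest that 3 against 3 allows).

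*Stat3* (ENSMUSG00000004040, chr11:100885098-100939540, minus strand), the factor of the IL-6 family and of G-CSF, was at 12.3, 13.2 and 12.3 FPKM in CTRL and 11.0, 12.3 and 11.1 FPKM in cKO. The lowest CTRL and highest cKO library were only 0.0377 FPKM apart. The log2 fold change was -0.13 (SE 0.053, 95% interval -0.26 to -0.0035, limma adjusted p = 0.0943), which did not pass. It passed without cKO replicate 2 (adjusted p = 0.0331) and with voom on reads (0.0453), and with length and GC trends removed the log2 fold change was -0.0012 (adjusted p = 0.990). Its 3′ end overlaps that of *Stat5a* on the other strand by 72 bases, 0.756% of its exon length.

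*Stat6* (ENSMUSG00000002147, chr10:127642986-127660957, plus strand), the factor of IL-4 and IL-13, was at 21.4, 21.2 and 21.2 FPKM in CTRL and 17.0, 17.9 and 18.1 FPKM in cKO. The CTRL libraries were nearly equal, and all cKO libraries lay below them. The mean fell from 21.3 ± 0.123 to 17.7 ± 0.618 FPKM (SD, n = 3), a log2 fold change of -0.25 (SE 0.035, 95% interval -0.34 to -0.17, limma adjusted p = 0.00184). *Stat6* shares 40 exon bases, 0.909% of its exons, with *Nab2* on the other strand, and the library kit does not mark strand.

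Of the other STAT genes reported, *Stat2*, which encodes a factor of the type I interferon response, fell from 4.92 to 5.07 FPKM in CTRL to 3.87 to 4.43 FPKM in cKO (log2 fold change -0.22, limma adjusted p = 0.0176). *Stat4*, the factor of IL-12, was at 3.27 to 3.77 FPKM in CTRL and 3.63 to 3.94 FPKM in cKO, with overlapping groups (adjusted p = 0.242).

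The 4 inhibitor genes differed in direction. *Socs3* (ENSMUSG00000053113, chr11:117966079-117970047, minus strand), whose product binds gp130 and the G-CSF receptor and blocks JAKs there, was at 5.97, 7.16 and 7.05 FPKM in CTRL and 3.77, 3.07 and 3.74 FPKM in cKO. The highest cKO library was well below the lowest CTRL library, with 343 to 391 reads in CTRL and 162 to 204 reads in cKO. The mean fell from 6.73 ± 0.660 to 3.53 ± 0.392 FPKM (SD, n = 3), a log2 fold change of -0.77 (SE 0.090, 95% interval -0.99 to -0.56, limma adjusted p = 0.00094). Its log2 fold change was -0.91 to -0.70 over 18 alternative settings. Its promoter holds 1 of the motifs printed above.

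*Socs1* (ENSMUSG00000038037, chr16:10782240-10785536, minus strand), an inhibitor of interferon and IL-4 signalling that binds JAKs directly, was at 2.37, 2.28 and 1.92 FPKM in CTRL and 3.45, 3.15 and 3.44 FPKM in cKO. It is a low gene, with 107 to 188 reads in a library, but the groups did not overlap. The mean rose from 2.19 ± 0.240 to 3.35 ± 0.170 FPKM (SD, n = 3), a log2 fold change of 0.45 (SE 0.075, 95% interval 0.27 to 0.63, limma adjusted p = 0.00399). The call held in all 17 alternative settings in which it was tested (0.39 to 0.64).

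*Socs2* (ENSMUSG00000020027, chr10:95385362-95417180, minus strand), a STAT5 target whose product restrains growth hormone signalling, was at 0.512, 0.542 and 0.552 FPKM in CTRL and 0.913, 0.857 and 1.17 FPKM in cKO. Every cKO library lay above every CTRL library, with 91 to 101 reads in CTRL and 149 to 207 reads in cKO. The mean was 0.535 ± 0.0210 in CTRL and 0.979 ± 0.165 in cKO (SD, n = 3), a difference of 83.0%. *Socs2* was higher in cKO in the limma fit without a filter (log2 fold change 0.36, adjusted p = 0.0306) and with voom on genes with at least 10 reads on average (0.88, 95% interval 0.54 to 1.21, adjusted p = 0.000176).

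*Cish* (ENSMUSG00000032578, chr9:107296026-107302784, plus strand), the classical STAT5 target, was at 1.10, 1.05 and 1.06 FPKM in CTRL and 1.01, 0.837 and 0.896 FPKM in cKO. The groups were separated by only 0.0372 FPKM, with 119 to 141 reads in CTRL and 98 to 122 reads in cKO. *Cish* did not pass in the limma fit without a filter (log2 fold change -0.11, adjusted p = 0.366) or with voom (-0.21, 95% interval -0.52 to 0.10, adjusted p = 0.274). The table's gene lengths are 6419 bases for *Cish* and 9531 bases for *Socs2*, while their longest coding transcripts in GENCODE M21 have 2850 and 2222 bases. Their FPKM are thus low for their reads, which does not alter the comparison of groups.

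Both *Cish* and *Socs2* are STAT5 targets, and within a library the FPKM ratio of *Cish* to *Socs2* was 2.16, 1.94 and 1.93 in CTRL and 1.11, 0.977 and 0.768 in cKO. Per longest coding transcript the ratio was 1.01 to 1.13 in CTRL and 0.403 to 0.584 in cKO, so that the fall holds with both lengths while the order of the genes does not. The ratio of *Socs3* to *Socs1* was 2.52, 3.14 and 3.68 in CTRL and 1.09, 0.976 and 1.09 in cKO, and per longest coding transcript 2.85 to 4.16 and 1.11 to 1.24. Its mean went from 3.11 ± 0.579 to 1.05 ± 0.0656 (SD, n = 3), the largest difference of the 5 ratios taken (-1.55 on the log2 scale). Each of the 5 ratios had an exact two-sided permutation p of 0.1, also 0.1 after adjustment over the 5. They restate the values of single genes, and their common direction follows from which gene was put in the numerator.

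**Figure D3:**
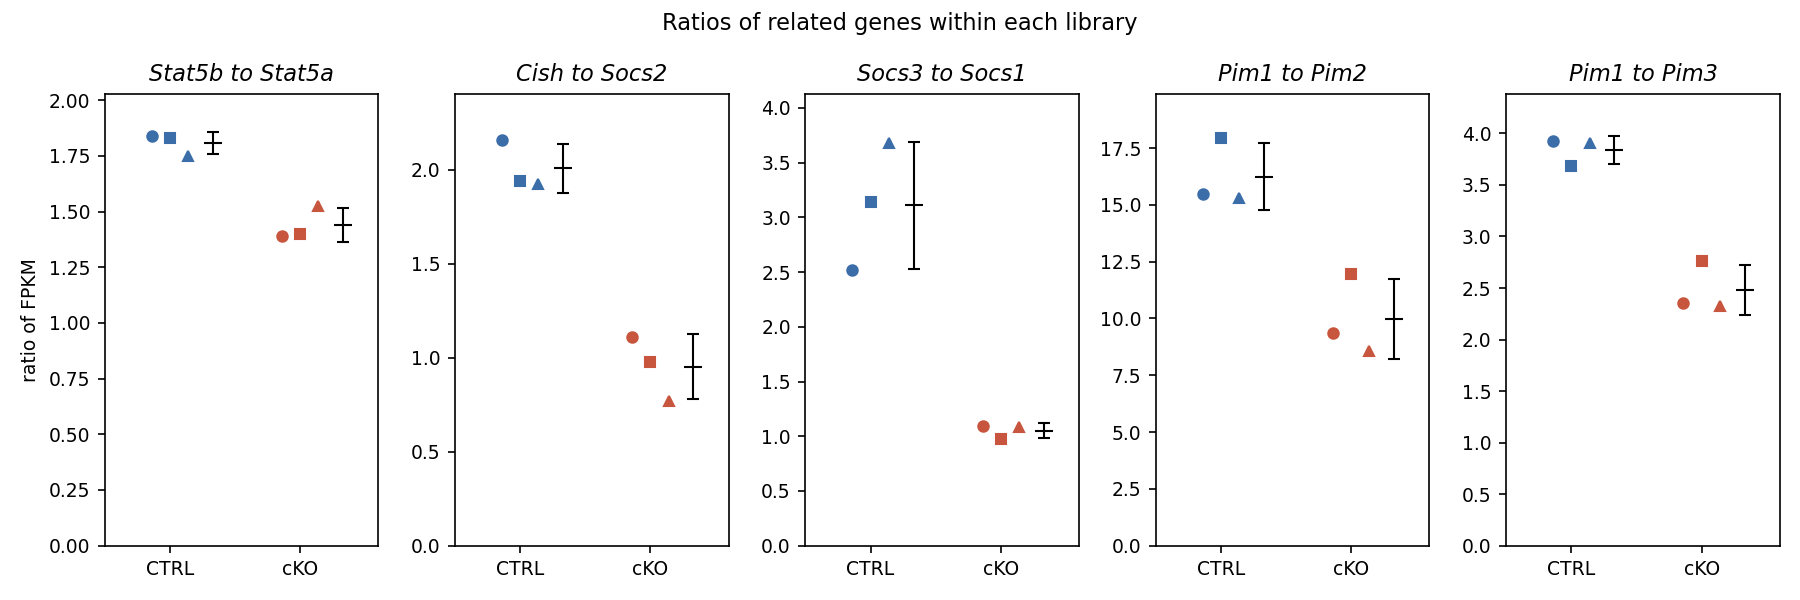
Ratio of FPKM within each library (y axis from 0) for 5 pairs of related genes in 3 CTRL (blue) and 3 cKO (red) libraries, with the mean ± SD beside them. With the numerators chosen so, cKO ratios are below CTRL ratios, from 3.11 to 1.05 on average for *Socs3* to *Socs1* and from 1.81 to 1.44 for *Stat5b* to *Stat5a*.

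The other SOCS genes were each at a few FPKM and also differed in direction. *Socs6* fell (2.69 to 3.08 FPKM in cKO against 3.45 to 4.01 FPKM in CTRL, log2 fold change -0.27, limma adjusted p = 0.0199), and so did *Socs7* (-0.21, adjusted p = 0.046). *Socs5* rose (0.20, adjusted p = 0.0339), and *Socs4* overlapped between groups (0.01, adjusted p = 0.925). The products of *Socs4* to *Socs7* are less tied to JAK-STAT receptors than those of the members.

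*Pim1* (ENSMUSG00000024014, chr17:29490812-29496111, plus strand), the kinase induced by STAT3 and STAT5, was at 99.3, 98.7 and 97.5 FPKM in CTRL and 57.1, 61.0 and 53.7 FPKM in cKO. It was the most highly expressed of the 10 genes in all 6 libraries, and the CTRL libraries were nearly equal. The mean fell from 98.5 ± 0.880 to 57.2 ± 3.64 FPKM (SD, n = 3), a log2 fold change of -0.77 (SE 0.046, 95% interval -0.88 to -0.66, limma adjusted p = 6.01e-05). Over 18 alternative settings the log2 fold change was -0.82 to -0.73. The gene *Gm26885*, which overlaps *Pim1* on the other strand, was at 0 in all 6 libraries.

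The related kinases had smaller differences. *Pim3* fell from 24.9 to 26.8 FPKM in CTRL to 22.1 to 24.3 FPKM in cKO (log2 fold change -0.15, limma adjusted p = 0.0428), and *Pim2* was at 5.50 to 6.41 and 5.10 to 6.25 FPKM, with overlapping groups (adjusted p = 0.624). Within a library the ratio of *Pim1* to *Pim3* was 3.92, 3.68 and 3.91 in CTRL and 2.35, 2.76 and 2.33 in cKO. The ratio of *Pim1* to *Pim2* went from 16.2 ± 1.47 to 9.96 ± 1.76 (SD, n = 3). The exact permutation p of both ratios was 0.1.

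Beyond the 10 genes, 56 further genes of the pathway were looked at in lists of JAK, STAT, SOCS and PIM genes (above), receptor chains, phosphatases and adaptors, and target genes. Of these, 50 were tested, of which 31 were lower, 5 were higher and 14 did not pass. The number higher was 3 without CTRL replicate 1 and also 3 without CTRL replicate 3. Of all genes tested, 20.6% were lower and 19.9% were higher, to be set beside these counts and those of each list below. The lists were chosen with earlier results of these data known. The median log2 fold change of the 50 was -0.21, with 1 gene past 2-fold on the log2(FPKM + 1) scale. In mean FPKM *Il6st* also fell more than 2-fold, by 59.4%.

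Of 19 receptor chains that signal through JAKs, 15 were tested, and 13 were lower and 2 higher in cKO, with a median log2 fold change of -0.32. The largest falls were in *Il6st*, which encodes gp130 (4.54 to 5.26 FPKM in CTRL, 1.94 to 2.11 FPKM in cKO, -0.98, limma adjusted p = 9.15e-05), and *Il6ra*, the IL-6 receptor (5.64 to 5.74 and 2.80 to 3.07 FPKM, -0.77). *Csf2ra*, for GM-CSF, went from 52.1 to 53.5 FPKM down to 31.8 to 33.7 FPKM (-0.67), and *Csf3r*, for G-CSF, from 32.3 to 33.2 down to 23.5 to 24.0 FPKM (-0.45). *Il4ra*, the chain that recruits STAT6, fell by 0.37 on the log2 scale (adjusted p = 0.0012).

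The 2 receptor chains that rose in the main test were *Il2rg*, the common gamma chain (19.0 to 22.2 FPKM in CTRL, 30.9 to 31.4 FPKM in cKO, 0.61, limma adjusted p = 0.000477), and *Epor*, the erythropoietin receptor (15.5 to 16.1 and 23.6 to 25.3 FPKM, 0.60, adjusted p = 6.81e-05). The product of *Epor* couples to JAK2 and STAT5, and *Jak2* and *Stat5b* were lower in the same libraries. *Il7r*, *Lifr*, *Osmr* and *Ghr* were below the limit. *Il7r*, the IL-7 receptor, was at 0.669 to 0.793 FPKM in CTRL and 1.04 to 1.21 FPKM in cKO, and was higher without the filter (limma adjusted p = 0.0362) and with voom on genes with at least 10 reads (0.00637). *Lifr*, the LIF receptor, at 17 to 30 reads in CTRL and 40 to 50 reads in cKO, was also higher in both (0.0467 and 0.00685).

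Of 12 phosphatases, PIAS proteins and adaptors that restrain JAK-STAT signalling or bind JAK2, 7 were lower, 5 did not pass and none was higher (median -0.16). The largest falls were in *Cbl* (4.51 to 5.21 FPKM in CTRL, 3.52 to 3.80 FPKM in cKO, -0.36, limma adjusted p = 0.00495), *Pias1* (-0.33), *Cblb* (-0.29) and the phosphatase gene *Ptpn1* (-0.22, adjusted p = 0.0157). *Cbl* and *Cblb* encode ubiquitin ligases that act on activated receptors, and *Pias1* a SUMO ligase.

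Of 14 other known target genes of STAT5 or STAT3, 12 were tested, and 6 were lower, 2 higher and 4 did not pass (median -0.14). *Osm*, which encodes the cytokine oncostatin M and is induced by STAT5, fell from 29.3 to 32.4 FPKM in CTRL to 10.1 to 10.9 FPKM in cKO (-1.45, limma adjusted p = 7.22e-06). The AP-1 gene *Junb* (-0.82), *Cebpd* (-0.74) and *Bcl3* (-0.42), which are STAT3 targets in many cells, fell as well. *Bcl2l1*, for the survival protein BCL-XL, rose from 4.04 to 4.60 to 5.17 to 6.33 FPKM (0.31, adjusted p = 0.0215), and *Ccnd2*, for cyclin D2, rose by 0.17 (adjusted p = 0.0162). *Bcl6* and *Il2ra* were below the limit. *Bcl6*, a repressor that STAT factors control, was at 0.788 to 0.908 FPKM in CTRL and 0.401 to 0.534 FPKM in cKO, and was lower without the filter (limma adjusted p = 0.0203) and with voom (0.00125). *Il2ra*, the IL-2 receptor alpha chain, had 3 to 5 reads in CTRL and 22 to 32 reads in cKO, and was higher in both (0.0109 and 0.000303).

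**Figure D4:**
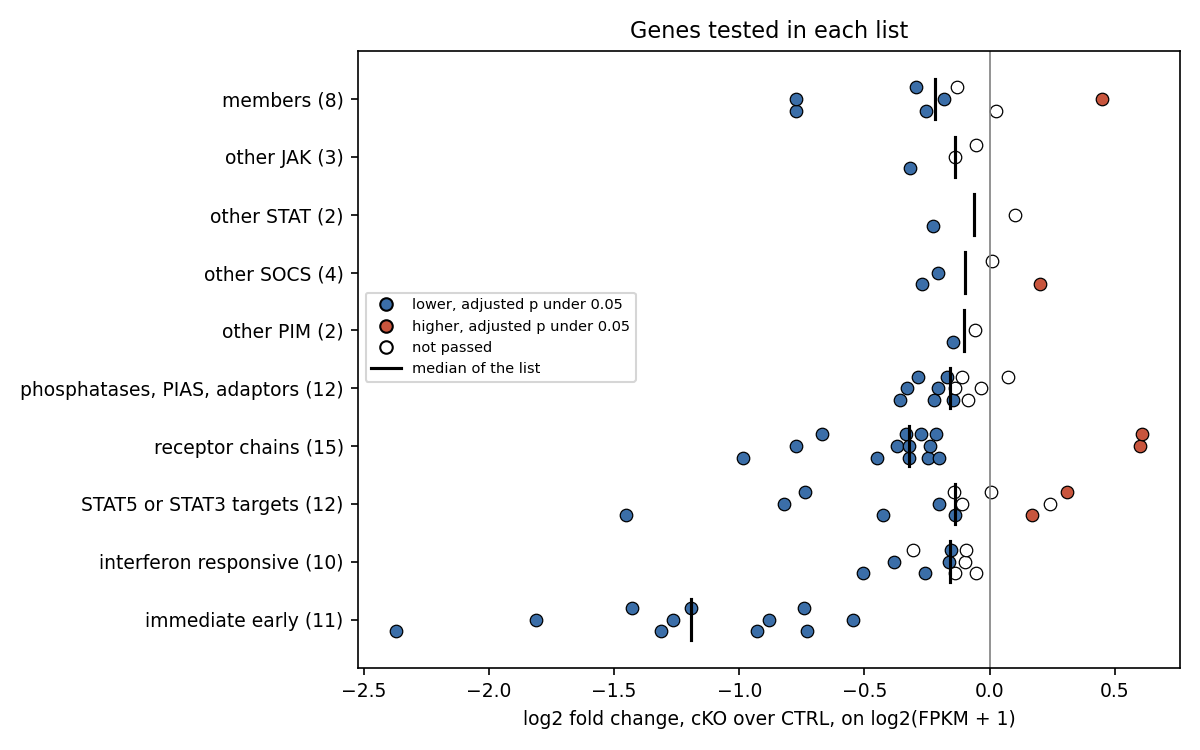
Log2 fold change (cKO over CTRL, on log2(FPKM + 1), x axis) of each tested gene, by list, with the number of genes tested in brackets. Blue and red points have an adjusted p under 0.05, open points do not, the black line is the median of the list, and height within a list only separates points. The 11 immediate early genes lie furthest left (median -1.19), and the 2 receptor chains at the right are *Il2rg* and *Epor*.

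Several of these genes are also induced by stimuli other than cytokines, so 2 further lists are given beside them. Of 12 interferon-responsive genes, 10 were tested, and of these 5 were lower, 5 did not pass and none was higher (median -0.16). *Ifit3* and *Rsad2* were below the limit. *Ifit3* was at 0.293 to 0.807 FPKM in CTRL and 0.979 to 1.16 FPKM in cKO. It was higher with voom on genes with at least 10 reads (limma adjusted p = 0.0269), but did not pass without the filter (0.0955). *Rsad2* passed in neither (0.400 and 0.573). *Irf1* fell from 20.8 to 23.4 to 15.0 to 15.4 FPKM (-0.50, limma adjusted p = 0.000376), *Irf9* by 0.38, *Oas2* by 0.26 and *Irf7* by 0.16 on the log2 scale. All 11 immediate early genes, which respond within minutes to growth factors, stress and cell handling, were lower in cKO, 6 of them past 2-fold, with a summed level of 768 to 788 FPKM in CTRL and 370 to 386 FPKM in cKO. *Atf3* fell most (13.3 to 14.9 FPKM to 1.76 to 2.21 FPKM, -2.37), followed by *Nr4a1* (-1.81), *Btg2* (-1.43) and *Egr1* (-1.31). *Pim1*, *Socs3*, *Junb* and *Cebpd* are also inducible genes with short-lived transcripts, and the part of handling or of the immediate early response in their falls was not tested.

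Markers of more mature cells differed between the groups, and their part in the values of the 10 genes was not tested. All 6 erythroid markers were higher, with a sum of 399 to 404 FPKM in CTRL and 726 to 753 FPKM in cKO, most of it *Car1*, followed by *Klf1*. Without *Car1* the sum was 55.7 to 59.8 and 117 to 127 FPKM. Of the 3 megakaryocyte markers tested all were higher (sum 56.2 to 59.9 and 124 to 129 FPKM over the list of 5, led by *Pf4* and *Itga2b*), and *Gp1bb* was at 0 in all 6 libraries. *Epor*, which rose, is expressed in the erythroid lineage.

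Of 6 mast cell and basophil markers 5 were higher (sum 90.3 to 102 FPKM in CTRL and 149 to 158 FPKM in cKO, led by *Cpa3* and *Mcpt8*). Of the 4 neutrophil and monocyte markers tested 3 were lower (sum 3277 to 3336 and 1489 to 1557 FPKM over the list of 6), nearly all of it *Elane*, a gene of granulocyte progenitors, with *S100a9* next. Without *Elane* the sum was 202 to 221 and 164 to 192 FPKM. The myeloid receptor genes *Csf3r* and *Csf2ra* and the inhibitor gene *Socs3* fell in the same libraries.

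The B and plasma cell markers summed to 34.0 to 34.9 FPKM in CTRL and 64.2 to 71.3 FPKM in cKO, of which *Jchain* was the most, followed by *Sdc1*, with 2 of 3 tested higher and 1 lower. The T and NK cell markers summed to 355 to 365 and 294 to 300 FPKM, nearly all *Nkg7*, and without it to 5.30 to 5.95 and 17.8 to 18.2 FPKM, with *Gzmb* next, and with 1 of 2 tested higher and 1 lower. The other 4 were below the limit. *Cd3e* was at 0 in all CTRL libraries and at 14 to 21 reads in cKO. Without the filter *Cd3e*, *Cd4* and *Klrb1c* were higher in cKO (limma adjusted p = 0.00363, 0.00649 and 0.0245), and *Cd8a* did not pass (0.689). The 4 LSK markers summed to 201 to 205 FPKM in CTRL and 203 to 212 FPKM in cKO, led by *Ly6a* and *Cd34*, with 1 lower (*Kit*), 1 higher and 2 not passed. The one that rose was *Flt3*, a receptor of multipotent and lymphoid progenitors, from 19.1 to 20.6 FPKM in CTRL to 28.8 to 31.1 FPKM in cKO (limma adjusted p = 0.000147).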

How the data were processed

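The authors sorted LSK cells and deposited 1 table with FPKM for each gene and library and the gene's length. Libraries were made with an Illumina TruSeq RNA kit, which does not mark strand. The study's methods name a company, Novogene, for library preparation and sequencing. The submitters' processing notes name HISAT2 2.0.5 and mm10; the counting program, its use of strand and its handling of shared reads are not given in the sources used here. FPKM times length gave whole reads for 100% of values (tolerance 0.02), and these recovered reads were used for depth and for voom. The deposited FPKM already carried a median-of-ratios scaling.

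Genes whose mean over the 6 libraries reached 1 FPKM were fitted as log2(FPKM + 1) with limma 3.58.1 (R 4.3.3), lmFit and eBayes with a trend, two-sided, with Benjamini-Hochberg adjustment over all 11552 genes. Every adjusted p of a single gene comes from limma. This stands in for the Student's test of the study's methods, whose 2-fold limit is reported beside it. Ratios within libraries were tested by exact permutation (scipy 1.17.1), adjusted over 5 ratios. Code was tested on simulated data. Intervals cover 95%, and the reads carry no molecular identifiers.

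Alternatives were a pseudocount of 0.1, no filter, a mean of at least 5 FPKM, median-of-ratios, quantile and TPM scaling, moderation without a trend, no moderation, voom on reads, a replicate block, leaving out each library, and removal of length and GC trends. Voom on genes with a mean of at least 10 reads was added after *Cish* and *Socs2* were seen to fall below the filter, and levels per longest coding transcript after the deposited lengths were seen. Named genes were all members, the other JAK, STAT, SOCS and PIM genes, *Myh9*, *Kit* and *Ly6a*, at most 4 genes in each direction of each other list with the largest changes past the threshold, and of each marker list the 2 highest genes and those at 0. *Il4ra*, *Il7r*, *Lifr*, *Osmr*, *Ghr*, *Bcl6*, *Il2ra*, *Ifit3*, *Rsad2*, *Flt3*, *Cd3e*, *Cd4*, *Cd8a*, *Klrb1c*, *Nab2* and *Gm26885* are outside this rule and were named after their values were seen. The members and lists were chosen with earlier results of these data known. Some genes of the lists are not reported here and were left out of their counts. Gene positions and lengths are those of the deposited table, exons come from GENCODE M21 and promoter windows from RefSeq (GRCm38.p6). The deposited length of *Pim1* is 2638 bases, against 3362 bases of merged exons in GENCODE M21, and the lengths of the other 9 members are the same in both.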

Additional observations from a re-analysis of the deposited data

How the results depend on the processing

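*Stat5b*, *Stat6*, *Socs3* and *Pim1* kept direction and call in all 18 alternative settings, and *Socs1* in all 17 in which it was tested. The number of members higher in cKO, 1 as reported, was 2 without a filter (with *Socs2*), 0 at a mean of at least 5 FPKM, which leaves out *Socs1*, 2 with length and GC trends removed (with *Stat5a*) and 2 with voom on genes with a mean of at least 10 reads, added after seeing the data. In the rest of the pathway the higher genes, 5 as reported, were 9 in the last setting, which tests more genes, 3 at a mean of at least 5 FPKM, 3 without moderation of the variance (the cause was not tested) and 3 to 5 as single libraries were left out. The number of members lower in cKO was 4 to 6 throughout. *Stat5a* reversed to -0.011 without cKO replicate 2, and ranged from -0.011 to 0.067 as single libraries were left out; the cause was not tested. Libraries with the same replicate number did not deviate together (correlations -0.0046, -0.011 and -0.026). Whether they shared a litter or a preparation cannot be told from these values. With a replicate block the members were again 5 lower and 1 higher. Median-of-ratios scaling left all values as they were, since the deposited values carry it. *Cish*, *Socs1* and *Socs2* rest on 91 to 207 reads a library, where small changes are not detectable.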
